A study of Mus musculus with 6 samples.

Results

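Glycolysis and hypoxia-responsive genes were followed in MB21 cells treated with DS38 or with vehicle. The 37 gene symbols cover glucose transporters, the glycolytic enzymes with their paralogs, lactate and pyruvate handling, the hypoxia-inducible factors (HIFs), their oxygen sensors and HIF targets outside glycolysis. They matched 38 of the 55416 Ensembl identifiers in the count table, because Aldoa matched 2. MB21 is a mouse medulloblastoma line, labelled as a ptch mutant and grown without attachment in B27-supplemented medium. All 6 libraries come from this line; 3 were treated with DMSO and 3 with DS38 (DS-1-38, a derivative of benzarone) at 10 uM, each for 1 day per the sample labels, although the design text of the series gives 5 days. Nothing in the labels ties the replicates to separate cultures; the p-values then describe only how these libraries vary, which may be technical.

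Glycolysis splits glucose into pyruvate in a preparatory stretch that spends ATP and a payoff stretch that returns it. Several steps have paralogous isoenzymes that differ in regulation and tissue use, such as hexokinase 1 and 2 or lactate dehydrogenase A and B. HIF-1, a dimer of HIF1A and ARNT, is degraded in oxygen after prolyl hydroxylation by the EGLN enzymes and VHL-dependent ubiquitination. When it persists it binds the core sequence A/GCGTG and induces glucose transporters, glycolytic enzymes and genes such as Vegfa. In hedgehog-driven granule progenitors and medulloblastoma, hexokinase 2 is known as a hedgehog-induced driver of aerobic glycolysis.

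The DMSO libraries held 38840296 to 50014681 counts and the deeper DS38 libraries 60434089 to 84044428, and the second principal component set DMSO replicate 3 apart. All 9 listed markers of granule progenitors and medulloblastoma were measured, and 8 were called, 3 higher and 5 lower. Over all tested genes 24.5% were called. Of those at 100 CPM or more, the level of 8 of the 9 markers, 40.7% were called, 311 higher and 800 lower. Atoh1 went from 327 to 411 CPM (log2 fold change 0.33), Barhl1 rose by 0.27 and Meis1 by 0.11, while Neurod1 (-0.37), Gli2 (-0.16), Gli1 (-0.15), Zic2 (-0.14) and Zic1 (-0.10) fell. Their summed level was 2287 to 2365 CPM in DMSO and 2305 to 2330 in DS38, with overlap. Markers of other cell types were low: summed levels were at most 0.336 CPM in any library for 6 microglial markers, at most 1.27 for 5 endothelial ones and at most 3.70 for 5 oligodendrocyte ones. Of 6 astrocyte markers, Aqp4, Aldh1l1 and Gja1 had at most 3 counts in a library, but the summed level was 302 to 324 CPM in DMSO and 251 to 259 in DS38, nearly all of it Slc1a2, a glutamate transporter gene. Gfap, of the same list, went the other way, from 4.33 ± 0.241 to 5.40 ± 0.333 CPM, a log2 difference of 0.32 (edgeR adjusted p = 0.0179). The 5 fibroblast markers summed to 1.15 to 1.34 CPM in DMSO and 1.84 to 2.17 in DS38, with Col1a2, Dcn and Pdgfrb at most 9 counts in a library. Col1a1 rose from 18, 10 and 21 counts to 85, 52 and 47 (log2 fold change 1.16, edgeR adjusted p = 0.0122). Lum was not called (0.60, edgeR adjusted p = 0.0637). The part of these shifts in the results was not tested, and in a bulk sample fewer cells of a type cannot be told apart from less RNA per cell.

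Promoters are shown for 4 members whose changes held in every alternative analysis, 2 that fell after DS38 (Hk2 and P4ha1) and 2 that rose (Ldhb and Slc16a1). Each sequence is the 250 bases before the start of a gene with a single start in the table and no annotated exon in the window, from RefSeq on build GRCm38.p6. In that build they lie at chr6:82774455-82774704 (minus strand) for Hk2, chr10:59323046-59323295 (plus) for P4ha1, chr6:142507958-142508207 (minus) for Ldhb and chr3:104638414-104638663 (plus) for Slc16a1. Capitals mark ACGTG or GCGTG, the core of the hypoxia response element, on either strand (CACGT or CACGC as printed).
Hk2: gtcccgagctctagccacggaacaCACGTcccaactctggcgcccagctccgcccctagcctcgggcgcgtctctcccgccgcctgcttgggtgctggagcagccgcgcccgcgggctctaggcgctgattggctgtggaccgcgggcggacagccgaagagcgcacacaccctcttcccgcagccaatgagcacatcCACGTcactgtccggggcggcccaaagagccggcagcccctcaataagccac
P4ha1: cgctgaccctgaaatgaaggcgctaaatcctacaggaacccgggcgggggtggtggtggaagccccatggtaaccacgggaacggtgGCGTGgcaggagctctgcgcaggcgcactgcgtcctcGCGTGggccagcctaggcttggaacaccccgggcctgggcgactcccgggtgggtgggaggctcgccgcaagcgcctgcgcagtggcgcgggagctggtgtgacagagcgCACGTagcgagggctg
Ldhb: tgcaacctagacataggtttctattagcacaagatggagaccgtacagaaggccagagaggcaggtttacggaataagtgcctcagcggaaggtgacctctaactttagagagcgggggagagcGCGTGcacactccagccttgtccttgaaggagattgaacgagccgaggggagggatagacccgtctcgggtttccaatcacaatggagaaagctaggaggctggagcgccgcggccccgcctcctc
Slc16a1: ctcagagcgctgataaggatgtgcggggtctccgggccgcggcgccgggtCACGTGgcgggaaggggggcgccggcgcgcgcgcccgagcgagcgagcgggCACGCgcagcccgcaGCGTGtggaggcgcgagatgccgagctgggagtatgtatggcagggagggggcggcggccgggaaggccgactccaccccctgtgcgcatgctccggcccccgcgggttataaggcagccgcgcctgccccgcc
These windows held 2, 3, 1 and 3 separate sites, the nearest to the start 52, 16, 126 and 134 bases before it, and 1 of the Slc16a1 sites is a palindrome that matched on both strands. Genes that fell and genes that rose both carried the motif. RefSeq promoters were matched for 34 of 37 symbols (not for Epas1, Ndrg1 or Slc2a3), and 31 of the 34 genes (91.2%) had a match in at least 1 of their promoters. That was so of all 5 members that fell, of 10 of 11 that rose and of 15 of 17 that were not called. Of all genes with a RefSeq promoter 41.5% had a match, and of the tested genes among them 60%. A gene with several promoters has more windows in which to match. Counted per promoter, 43 of 52 matched for members (82.7%), against 54% for tested genes and 38.6% for all. By call, 6 of 6 promoters matched for members that fell, 11 of 16 for those that rose and 25 of 29 for those not called. The median GC content of the windows was 62.8% for members, 59.6% for tested genes and 52.4% for all. Known HIF targets were among the reasons for choosing members, so the share is a description, and a match is a run of letters, not a bound site.

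After DS38 the genes of the pathway did not move as a block. Hk2, Pfkl, Pfkfb3, P4ha1 and Ankrd37 fell, while Hk1, Pfkp, Aldoa, Eno2, Ldhb, Slc16a1, Pdk1, Egln1, Bnip3, Vegfa and P4ha2 rose. Of 36 identifiers tested, 12 rose (both Aldoa identifiers among them) and 5 fell by edgeR's quasi-likelihood test with Benjamini-Hochberg adjustment over 17679 genes at 0.05; 19 were not called. Over all tested genes 24.5% were called, 12.9% higher and 11.7% lower. The 17 called members are 47.2% of those tested. That share varied with the level of the genes: 4 of the 13 members at 100 CPM or more were called (30.8%), against 40.7% of all tested genes at that level, 4 of 6 at 50 to 100 CPM (66.7%, against 33.1%) and 9 of 17 below 50 CPM (52.9%, against 19.6%). The size of the log2 fold change, taken without sign, had a median of 0.25 for called members and 0.21 for all called genes. The median log2 fold change was 0.05 over the tested members and 0.004 over all tested genes. The DS38 and DMSO libraries did not overlap for 21 of the 36, and this held for 38.6% of all tested genes. Of the 17 calls, 9 (Hk1, Hk2, Pfkl, Pfkfb3, Ldhb, Slc16a1, Pdk1, Vegfa and P4ha1) held in every alternative run. Leaving out DS38 replicate 1 gave 7 rises, and a correction for gene length gave 8 rises and 10 falls (44.4% of the calls higher, against 70.6%). Over all tested genes that correction gave 1952 higher and 2396 lower (44.9% of the calls higher, against 52.4%).

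**Figure D1:**
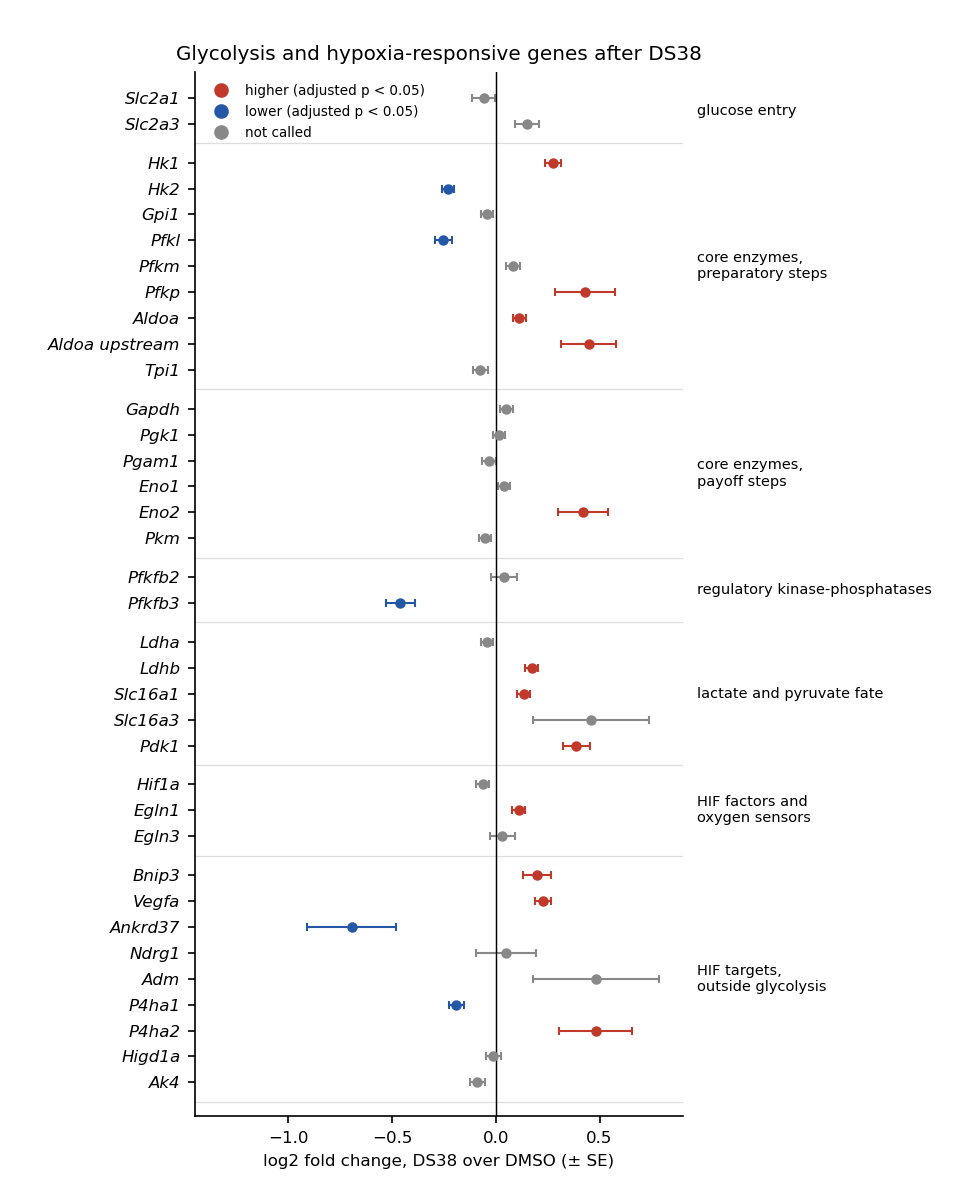
Log2 fold change of each tested member, DS38 over DMSO, with its standard error (horizontal axis), grouped by role; red and blue points passed an adjusted p of 0.05 and grey ones did not. The payoff enzymes lie close to 0 apart from Eno2 (0.42), while Hk1 (0.28) and Hk2 (-0.23) lie on opposite sides.

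Glucose entry was measured through Slc2a1, which encodes the basal transporter GLUT1, and Slc2a3, which encodes the high-affinity neuronal transporter GLUT3. Slc2a1 was at 22.5, 20.2 and 23.7 CPM (counts scaled to library size and by TMM) in DMSO replicates 1 to 3 and at 20.1, 22.0 and 21.5 in DS38. The groups overlapped and the gene was not called (log2 fold change -0.06 ± 0.057 SE; edgeR adjusted p = 0.491). Slc2a3 was at 17.8, 19.8 and 20.8 CPM in DMSO and 22.0, 20.1 and 22.3 in DS38, with an overlap at DS38 replicate 2. It was not called (0.15 ± 0.059; edgeR adjusted p = 0.0678), though it passed without DMSO replicate 3 (0.0171), without DS38 replicate 2 (0.0388), with library size alone (0.0297) and with no filter on low counts (0.0349). On a scale per length (RPKM, which is CPM divided by gene length in kilobases), Slc2a1 was the more abundant, with a mean of 6.31 in DMSO against 2.69 for Slc2a3.

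The hexokinase genes, whose products trap glucose as glucose 6-phosphate, moved in opposite directions. Hk2, the inducible isoenzyme, was at 225, 219 and 215 CPM in DMSO and 189, 187 and 185 in DS38. Every DS38 library lay below every DMSO library (log2 fold change -0.23 ± 0.028; edgeR adjusted p = 3.66e-06). Hk1, the constitutive isoenzyme of brain, was at 49.7, 47.3 and 48.4 CPM in DMSO and 61.4, 57.6 and 56.9 in DS38, again without overlap (0.28 ± 0.038; edgeR adjusted p = 1.66e-05). Per length Hk2 stayed the main isoenzyme, with 86.6% ± 0.250 of the summed Hk1 and Hk2 RPKM in DMSO and 82.0% ± 0.457 in DS38 (SD, n = 3). The log2 ratio of Hk2 to Hk1 fell by 0.506. Their sum went from 42.5 ± 0.984 to 38.2 ± 0.589 RPKM, also without overlap.

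Gpi1, which converts glucose 6-phosphate to fructose 6-phosphate, was at 269 to 283 CPM in DMSO and 264 to 268 in DS38 and was not called (log2 fold change -0.04 ± 0.029; edgeR adjusted p = 0.291). The next step, phosphofructokinase, commits the sugar to glycolysis and has 3 genes. Pfkl, the liver-type subunit, fell from 40.3, 42.1 and 39.5 to 34.8, 34.5 and 33.2 CPM without overlap (-0.25 ± 0.041; edgeR adjusted p = 9.19e-05). Pfkm, the muscle-type subunit, was at 74.6, 77.6 and 79.8 CPM in DMSO and 81.1, 84.1 and 80.8 in DS38. It was not called (0.08 ± 0.034; edgeR adjusted p = 0.0699), but passed under scaling by library size alone (0.0145) and without DMSO replicate 3 (0.022). Pfkp, the platelet-type subunit, was scarce: 1.597, 2.02 and 1.65 CPM in DMSO and 2.29, 2.54 and 2.30 in DS38 (0.43 ± 0.146; edgeR adjusted p = 0.0342).

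The Pfkp call was lost with DESeq2 (adjusted p = 0.069), with thinning (edgeR adjusted p = 0.0757) and in 5 of the 6 fits that left out a library, all but that without DMSO replicate 2 (edgeR adjusted p = 0.0634 to 0.133). Its exons overlap those of Pitrm1 on the other strand, which had 27206 counts against 774 for Pfkp, and the strand setting of the counting is not given in the sources used here. Pfkm likewise overlaps Senp1, whose log2 fold change was -0.13. Per length Pfkm was the main subunit, at 78.8% ± 0.859 of the 3 genes in DMSO and 82.3% ± 0.366 in DS38, while Pfkl went from 20.7% ± 0.827 to 17.1% ± 0.382. The summed RPKM of the 3 genes was 29.4 ± 0.764 in DMSO and 29.8 ± 0.617 in DS38, with overlap. The Pfkl and Pfkm shares did not overlap between groups, whereas the sums did. With Pfkp at 0.446% in DMSO and 0.595% in DS38, those shares nearly mirror each other and are not separate results.

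The bifunctional PFKFB enzymes set the level of fructose 2,6-bisphosphate, the activator of phosphofructokinase. Pfkfb3, the isoenzyme of highest kinase activity, was at 10.5, 9.88 and 9.95 CPM in DMSO and 7.40, 7.52 and 7.17 in DS38. The groups were well apart (log2 fold change -0.46 ± 0.072; edgeR adjusted p = 6.45e-05), a fall of 27.3%. Pfkfb2 was at 17.3, 17.2 and 14.6 CPM in DMSO and 16.4, 17.4 and 16.9 in DS38 and was not called (0.04 ± 0.062; edgeR adjusted p = 0.706). Its exons overlap those of Yod1 on the other strand, with 19723 counts against 6051. Pfkfb2 made up 62.7% ± 2.08 of the pair per length in DMSO and 70.5% ± 0.609 in DS38.

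**Figure D2:**
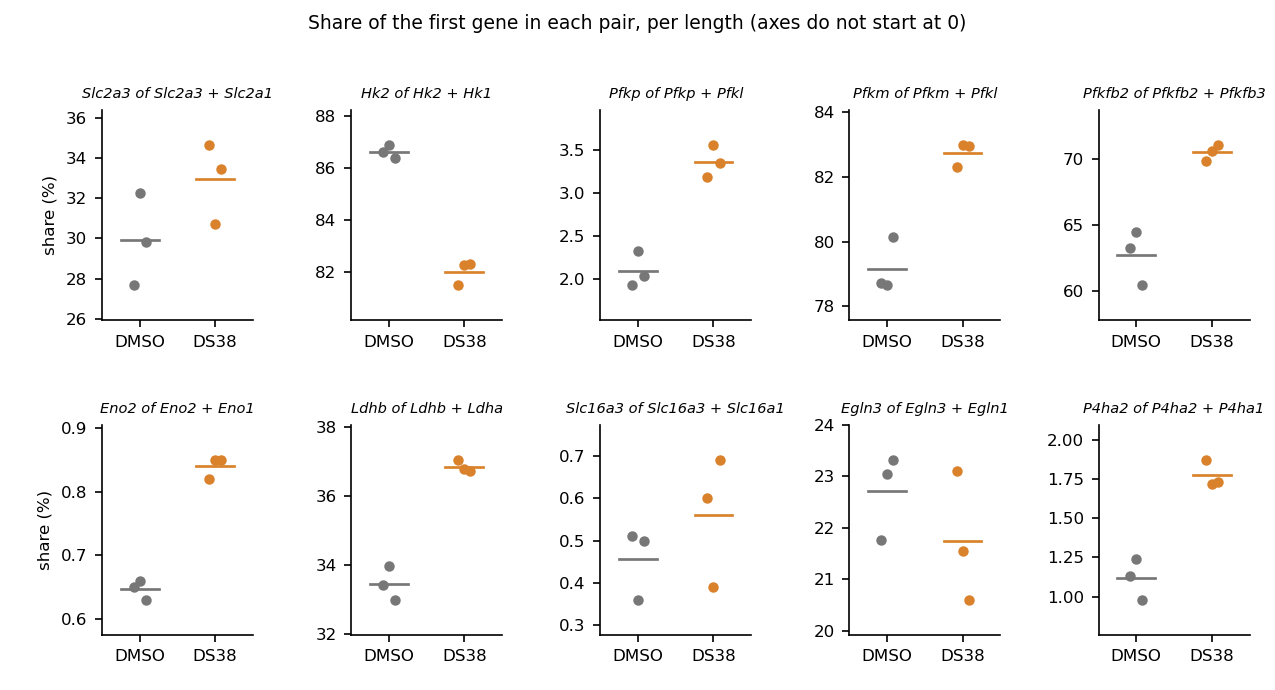
Share of the first-named gene in the summed RPKM of each of 10 paralog pairs (vertical axis, percent, ranges differ between panels and do not start at 0) in the 3 DMSO and 3 DS38 libraries; points are libraries and bars are means. The groups do not overlap in 7 pairs, among them Hk2 of Hk2 and Hk1, which went from 86.6% to 82.0%. Taken singly, 38.6% of all tested genes did not overlap, and no such share was computed for other gene pairs.

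Aldoa, the fructose bisphosphate aldolase of most tissues, was at 495, 479 and 520.4 CPM in DMSO and 549, 538 and 528 in DS38 (log2 fold change 0.11 ± 0.031; edgeR adjusted p = 0.0103). No library overlapped, but the call was lost without DMSO replicate 2 (edgeR adjusted p = 0.105), with the length correction (0.079) and when DS38 replicate 1 was left out (0.077). The other Aldoa identifier, ENSMUSG00000114515, is an upstream gene model on the same strand. It went from 2.19, 2.77 and 2.82 to 3.90, 3.62 and 3.06 CPM (0.45 ± 0.132; edgeR adjusted p = 0.0153) and was not called without DMSO replicate 1 (0.104) or without DS38 replicate 1 (0.0942) or 2 (0.0513). Tpi1, triose phosphate isomerase, was at 105 to 116 CPM in DMSO and 102 to 105 in DS38 with overlap (-0.07 ± 0.035; edgeR adjusted p = 0.131), and passed without DMSO replicate 1 (0.0492) and with the length correction (0.0203).

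The payoff enzymes include the most abundant members per length, Gapdh (285 RPKM in DMSO) and Pkm (255 RPKM), and 5 of the 6 genes were not called. That is 16.7% called, against 24.5% of all tested genes. At 100 CPM or more, the level of 5 of the 6, 40.7% of all tested genes were called. Gapdh, glyceraldehyde 3-phosphate dehydrogenase, was at 1162, 1142 and 1227 CPM in DMSO and 1236, 1218 and 1204 in DS38 (log2 fold change 0.05 ± 0.030; edgeR adjusted p = 0.233), and Pkm, pyruvate kinase of muscle and tumours, was at 1281, 1233 and 1317 and at 1246, 1246 and 1205 (-0.05 ± 0.030; edgeR adjusted p = 0.225). Gene counts do not separate the PKM1 and PKM2 splice forms. Pgk1 (0.01 ± 0.028), Pgam1 (-0.03 ± 0.034) and Eno1 (0.04 ± 0.029) were not called either, at 238 ± 5.35, 115 ± 5.24 and 413 ± 12.3 CPM in DMSO (SD, n = 3). Gapdh passed under scaling by library size alone (edgeR adjusted p = 0.0346) and without DMSO replicate 3 (0.0331), Eno1 with library size alone (0.0491), and Pkm with the length correction (0.0259).

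Eno2, the neuron-type enolase, was the exception in this stretch. It rose from 2.33, 2.35 and 2.38 to 3.10, 3.18 and 3.17 CPM with no overlap (log2 fold change 0.42 ± 0.119; edgeR adjusted p = 0.012), and the call was lost after thinning (0.105). It stayed a trace isoenzyme: its share of the Eno1 and Eno2 sum per length was 0.647% ± 0.0151 in DMSO and 0.839% ± 0.0181 in DS38. Gapdh, Pkm, Eno1, Pgk1, Pgam1, Tpi1 and Gpi1 have near-identical copies among other annotated genes, whose counts came to 0.237% to 3.94% of the gene's own. The 3.94% is that of Pkm and includes Gm49759, whose exons overlap those of Pkm on the same strand. Gm49759 had 7926 counts and fell (log2 fold change -0.21, edgeR adjusted p = 0.00742). Over the 14 core enzyme genes from hexokinase to pyruvate kinase, summed levels were 4459, 4375 and 4640 CPM in DMSO and 4560, 4513 and 4439 in DS38. The sums overlapped (means 4491 and 4504 CPM; exact permutation p = 1, two-sided), and they made up 0.449% of the reads in DMSO.

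**Figure D3:**
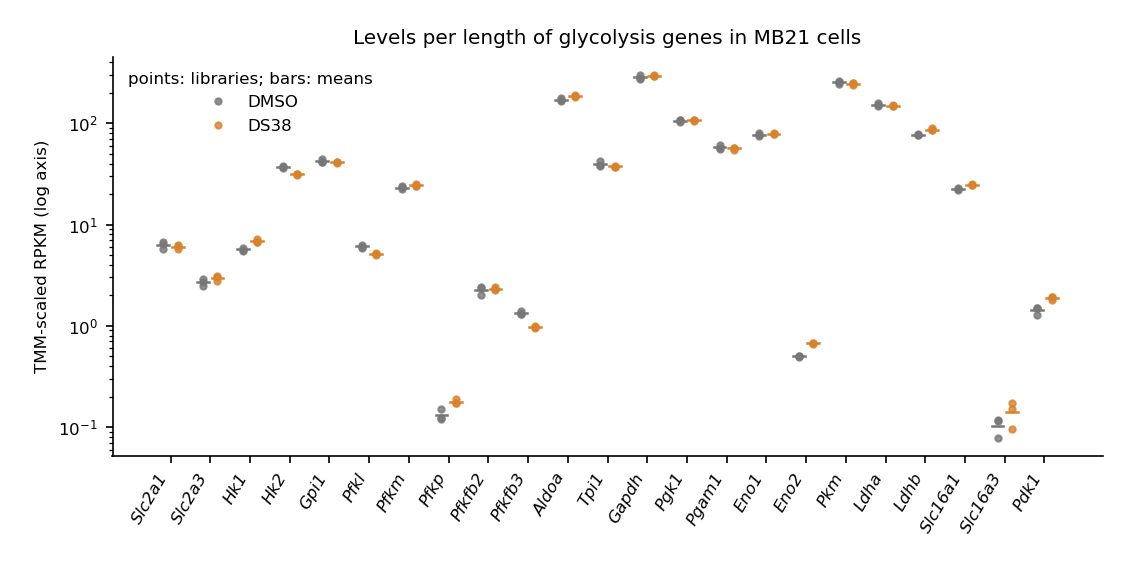
Level per length (TMM-scaled RPKM, log axis) of glycolysis members in order of the pathway, in 3 DMSO and 3 DS38 libraries (points) with group means (bars). Gapdh, Pkm, Aldoa and Ldha were the highest and Pfkp and Slc16a3 the lowest.

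Pyruvate is reduced to lactate by lactate dehydrogenase and leaves the cell through monocarboxylate transporters, or enters mitochondria where PDK1 restrains pyruvate dehydrogenase. Ldha, the subunit that favours lactate formation, was at 503, 492 and 526 CPM in DMSO and 503, 488 and 486 in DS38 (log2 fold change -0.04 ± 0.030; edgeR adjusted p = 0.326); it passed with the length correction alone (0.0441). Ldhb, the subunit that favours lactate use, rose from 119.7, 120.2 and 123 to 140.4, 135 and 134 CPM (0.17 ± 0.030; edgeR adjusted p = 0.000196). Every DS38 library exceeded every DMSO library. Copies held counts equal to 1.37% of those of Ldha and 2.31% of those of Ldhb. Ldhb was 33.5% ± 0.492 of the lactate dehydrogenase pair per length in DMSO and 36.8% ± 0.174 in DS38.

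Slc16a1, which encodes the transporter MCT1, rose from 100.1, 97.1 and 102 to 110.0, 108 and 110.2 CPM (log2 fold change 0.13 ± 0.030; edgeR adjusted p = 0.00239). Slc16a3, the hypoxia-induced exporter MCT4, was scarce at 0.416 to 0.620 CPM in DMSO and 0.506 to 0.916 in DS38, with overlap (0.46 ± 0.278; edgeR adjusted p = 0.249). Pdk1 rose from 11.5, 11.7 and 10.1 to 14.1, 14.8 and 14.8 CPM (0.39 ± 0.065; edgeR adjusted p = 0.000143), a rise of 30.9% and the largest rise among the 9 calls that held in every alternative. In this set 3 of 5 genes rose and 0 fell (60% called, against 24.5% of all tested genes). Ldha, Ldhb and Slc16a1 lay near or above 100 CPM, and 40.7% of all tested genes at 100 CPM or more were called.

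Of 10 paralog pairs with both genes tested, the log2 ratio differed without overlap of the libraries in 7. Taken singly, 38.6% of all tested genes did not overlap. No such share was computed for ratios of other gene pairs, and the pairs were chosen with earlier results known. The exact permutation test cannot go below p = 0.1 with 3 against 3, which those 7 reached (0.143 after Benjamini-Hochberg adjustment over the 10 pairs), so none passes 0.05. The largest shifts were Pfkp to Pfkl (0.696) and P4ha2 to P4ha1 (0.682), each with a scarce gene rising and an abundant one falling. Pfkfb2 to Pfkfb3 shifted by 0.506, Eno2 to Eno1 by 0.378, Pfkm to Pfkl by 0.336 and Ldhb to Ldha by 0.214. The Eno2 to Eno1 shift was 0.280 after thinning. The libraries overlapped for Slc2a3 to Slc2a1 (0.204; exact permutation p = 0.2), Slc16a3 to Slc16a1 (0.276; p = 0.4) and Egln3 to Egln1 (-0.081; p = 0.3).

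Hif1a, the oxygen-regulated subunit of HIF-1, was among the more abundant members, at 413, 399 and 396 CPM in DMSO and 382, 375 and 399.7 in DS38. The groups overlapped through DS38 replicate 3, and the gene was not called (log2 fold change -0.06 ± 0.030; edgeR adjusted p = 0.13), although it passed without DMSO replicate 3 (0.0381) and with the length correction (0.016). HIF1A is regulated mainly through its stability, which mRNA counts do not measure. Epas1, the gene of HIF-2 alpha, had 1 to 8 counts per library and 19 in all, and was not tested. Egln1, the main oxygen sensor, rose from 84.7, 81.4 and 83.6 to 89.2, 90.2 and 89.96 CPM (0.11 ± 0.031; edgeR adjusted p = 0.0114). That call was lost without DMSO replicate 2 (0.0795), without DS38 replicate 2 (0.0504), with the length correction (0.118) and after thinning (0.0639). Egln3, a sensor that HIF itself induces, was at 17.5 to 18.8 CPM in DMSO and 17.3 to 19.9 in DS38 (0.03 ± 0.058; edgeR adjusted p = 0.737).

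HIF targets outside glycolysis went in both directions: of 9 tested, 3 rose, 2 fell and 4 were not called. That is 55.6% called, against 24.5% of all tested genes (12.9% higher and 11.7% lower). Only the Vegfa and P4ha1 calls held in every alternative. Vegfa, the angiogenic growth factor, rose from 51.2, 55.7 and 54.4 to 61.1, 64.6 and 63.3 CPM (log2 fold change 0.23 ± 0.038; edgeR adjusted p = 0.000119). Bnip3, a mitophagy receptor, rose from 11.3, 10.2 and 11.9 to 12.5, 12.5 and 13.3 CPM (0.20 ± 0.067; edgeR adjusted p = 0.0325). For neither gene did the libraries overlap, but the Bnip3 call was lost in 8 of 16 alternatives, among them every fit that left out a library except that without DMSO replicate 3 (edgeR adjusted p = 0.0563 to 0.197). Copies of Bnip3 held counts equal to 7.03% of its own.

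P4ha1 and P4ha2 encode catalytic subunits of the prolyl hydroxylase that matures collagen. P4ha1 fell from 64.9, 60.2 and 63.6 to 55.2, 55.3 and 55.0 CPM (log2 fold change -0.19 ± 0.035; edgeR adjusted p = 0.000417), with DS38 libraries tightly together below all DMSO libraries. P4ha2 rose from 1.13, 1.14 and 0.957 to 1.59, 1.47 and 1.47 CPM (0.48 ± 0.175; edgeR adjusted p = 0.0485). That P4ha2 call is at the edge of the threshold and was lost in 13 of the 15 alternatives that tested it, including every one that left out a library (edgeR adjusted p = 0.0743 to 0.146).

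Ankrd37, a small ankyrin repeat gene strongly induced by HIF-1, fell from 1.45, 0.957 and 1.42 to 0.715, 0.864 and 0.787 CPM (log2 fold change -0.70 ± 0.215; edgeR adjusted p = 0.0208). The libraries did not overlap, but the call was lost without DMSO replicate 1 (0.105) or 3 (0.0556) and without DS38 replicate 1 (0.082) or 3 (0.0601). Its 349 counts stand beside 13156 of Ufsp2 and 327 of Lrp2bp, whose exons overlap it on the other strand. Lrp2bp had a log2 fold change of -0.64. Where strand was not counted, reads within shared bases cannot be told apart, and the extent of the overlap was not measured. Car9, a carbonic anhydrase often used as a hypoxia marker, had 0 counts in 5 libraries and 1 in DS38 replicate 3; 3 counts would be 0.0357 to 0.0772 CPM in a library, and such limits cover counting error only.

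The remaining HIF targets were not called. Ndrg1, a stress-response gene, was at 2.48 to 3.64 CPM in DMSO and 2.69 to 3.69 in DS38 (edgeR adjusted p = 0.844), and Higd1a, a mitochondrial protein gene with copies at 2.77% of its counts, at 47.6 to 50.3 and 47.3 to 48.8 (edgeR adjusted p = 0.845). Adm, which encodes the vasodilator peptide adrenomedullin, was at 0.291 to 0.512 and 0.517 to 0.603 CPM without overlap (log2 fold change 0.48 ± 0.304; edgeR adjusted p = 0.267). Ak4, a mitochondrial adenylate kinase, was at 71.0, 66.3 and 66.0 CPM in DMSO and 64.4, 63.5 and 63.5 in DS38 (-0.09 ± 0.035; edgeR adjusted p = 0.0685). Ak4 passed without DMSO replicate 3 (0.0199), with the stricter filter on low counts (0.0401) and with the length correction (0.00875).

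**Figure D4:**
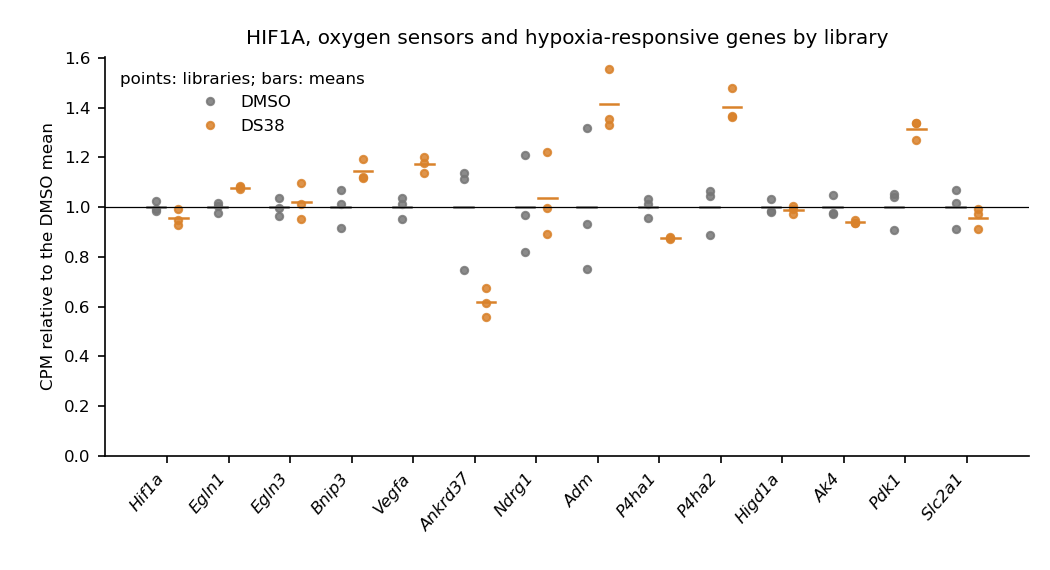
CPM of Hif1a, the oxygen sensors and hypoxia-responsive members relative to the DMSO mean of each gene (vertical axis), in 3 DMSO and 3 DS38 libraries (points) with group means (bars). Vegfa, Pdk1 and P4ha2 lie above 1 and P4ha1 and Ankrd37 below 1 in all DS38 libraries, while Hif1a, Higd1a and Slc2a1 overlap between groups.

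Genes of the same pathways that are not among the 37 gave the following counts. Of 18 tested further glycolysis genes, 4 rose and 0 fell (22.2% called, against 24.5% of all tested genes), with a median log2 fold change of 0.12; with library size alone 7 rose. Eno3, muscle-type enolase, rose from 11.5 ± 0.839 to 15.6 ± 0.691 CPM (edgeR adjusted p = 3.65e-05) and Slc2a8, an intracellular glucose transporter gene, from 4.94 ± 0.492 to 6.94 ± 0.495 (edgeR adjusted p = 0.000463). Of 13 tested genes of pyruvate transport and oxidation, 3 rose and 1 fell (30.8% called), with a median of 0.03. The list includes Slc16a7 and Bsg, which act at the cell membrane and were not called. Pdha1, the catalytic subunit of pyruvate dehydrogenase, rose by 0.14 ± 0.028 and Pdk2 by 0.13 ± 0.043, while the phosphatase gene Pdp2 fell by 0.18 ± 0.039 on the log2 scale. When DMSO replicate 2, or DS38 replicate 1 or 3, was left out, 1 gene of this list rose, as it did with DESeq2, after thinning and under the length correction.

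Of 10 oxygen sensing genes 2 rose and 1 fell (30% called, against 24.5% of all tested genes). Their median log2 fold change was 0.02, whereas under the length correction 0 rose and 3 fell. Cul2 and Vhl, both parts of the ubiquitin ligase that marks HIF1A, rose by 0.11 ± 0.031 and 0.12 ± 0.037, and Egln2, a further prolyl hydroxylase, fell by 0.17 ± 0.040 on the log2 scale. In fits that left out a library, 1 of this list rose, or 0 without DS38 replicate 1, except without DMSO replicate 3, where 3 rose. Without DMSO replicate 1, 2 fell. Of 22 further HIF targets 10 rose and 2 fell (54.5% called, against 24.5% of all tested genes), with a median of 0.11. By level, the share over all tested genes was 40.7% at 100 CPM or more, 33.1% at 50 to 100 CPM and 19.6% below. Plod1, a collagen lysyl hydroxylase gene, rose by 0.31 ± 0.054 and Wsb1 by 0.17 ± 0.037, while Plod2 fell by 0.11 ± 0.031 and Fam162a by 0.15 ± 0.047. Without DS38 replicate 1 that list had 6 rises, the number that fell was 1 without DMSO replicate 1 or 2 and 0 without DS38 replicate 2, and 6 rose under the length correction. With library size alone 14 rose and 0 fell. These lists share Pfkfb4, which is counted in both the glycolysis and the HIF list.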

How the data were processed

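Raw counts per Ensembl gene, all whole numbers, were deposited by the authors in 1 table for 6 libraries, with a gene length in bases (unit other than a measurement). The tools named, per the submitters' processing notes, were edgeR, R 4.1.0, featureCounts with Subread 2.0.3 and STAR 2.7.9a, and the builds GRCm39 and GRCh38.p13. How strand and multimapping reads were handled is not given in the sources used here. Libraries were made from column-purified RNA with an mRNA kit, per the labels' protocols.

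Values here were computed with edgeR 4.0.16, DESeq2 1.42.0 and limma 3.58.1 in R 4.3.3, and with blastn 2.17.0, matplotlib 3.10.9 and Python 3.11.15. Genes were kept by filterByExpr (minimum count 10, minimum total 15), scaled by TMM and tested for the group effect (two-sided) with edgeR's quasi-likelihood F-test, with Benjamini-Hochberg adjustment over 17679 genes and a threshold of 0.05, after the fit had been tested on simulated data. Symbols came from GENCODE M21 (GRCm38) and matched 52083 identifiers. RPKM divides TMM-scaled CPM by the deposited length. Near-identical copies are other genes with at least 95% identity over 200 bases, and overlapping genes share exonic bases in GENCODE M21. Members, lists and pairs were chosen with earlier results of these data known. Every member is accounted for; of each further list the 2 called genes of smallest adjusted p per direction are named. Alternatives were DESeq2, limma-voom, RLE scaling, library size alone, no filter, 5 CPM in 3 libraries, robust dispersion, a replicate block, thinning to the smallest library, a loess correction for gene length, and leaving out each library. Within groups, replicate pairs differed beyond sampling noise: chi-square per degree of freedom was 7.82 to 8.76 for DMSO pairs and 2.79 to 3.37 for DS38 pairs.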

Additional observations from a re-analysis of the deposited data

How the results depend on the processing

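Over the 16 alternatives, the number of members that rose was 7 to 16 and the number that fell 4 to 10. Thinning to the smallest library gave 7 rises, and leaving out each library in turn gave 7 to 13 rises and 4 to 6 falls. The length correction gave 10 falls, the added ones being Tpi1, Pkm, Ldha, Hif1a and Ak4. The median log2 fold change of the tested members was 0.0165 to 0.0804, and 0.0262 to 0.0705 with a library left out. Over all tested genes, library size alone gave 3289 higher and 1543 lower (68.1% higher, against 52.4%), and moved the median of all genes from 0.0036 to 0.0384. None of the 17 called members changed sign. Sign changes occurred among members that were not called: Pgk1 with the length correction (-0.016) and without DMSO replicate 1 (-0.006), Pgam1 with library size alone (0.004) and without DMSO replicate 3 (0.001), Pfkfb2 without DMSO replicate 3 (-0.038), Egln3 without DS38 replicate 1 (-0.024) and under the length correction (-0.004), Ndrg1 without DMSO replicate 2 (-0.086) or DS38 replicate 1 (-0.092), and Higd1a with library size alone (0.022) and when DMSO replicate 3 (0.007) or DS38 replicate 1 (0) was left out. With each library left out in turn, the values ran from -0.006 to 0.023 for Pgk1, -0.058 to 0.001 for Pgam1, -0.038 to 0.078 for Pfkfb2, -0.024 to 0.081 for Egln3, -0.092 to 0.217 for Ndrg1 and -0.031 to 0.007 for Higd1a. The causes were not tested.

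Libraries with the same replicate number did not deviate together (r = 0.035, -0.011 and -0.027 for numbers 1 to 3). Unlike numbers gave r from -0.044 to 0.056. With 3 libraries per group, such values cannot show whether same-numbered libraries were prepared together. With the replicate block 11 members rose and 5 fell, P4ha2 being the call lost (edgeR adjusted p = 0.059). Slc16a3 and Adm, both under 1 CPM in every library, had standard errors of 0.278 and 0.304 and were not called with log2 fold changes of 0.46 and 0.48, and Epas1 and Car9 had too few counts to be tested.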
